A study of Mus musculus with 24 samples.

Results

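Retinoic acid is a small signal made from vitamin A that patterns the face, limbs and hindbrain of the embryo. Retinaldehyde dehydrogenases (Aldh1a1, Aldh1a2 and Aldh1a3) make it, Cyp26 enzymes (Cyp26a1, Cyp26b1 and Cyp26c1) oxidise it to inactive products, and cellular retinoic acid binding proteins (Crabp1 and Crabp2) carry it inside the cell. Retinoic acid receptors, of which Rarb is itself a classical target of the signal, bind DNA together with retinoid X receptors, and Cyp26a1 is a target too, so that the signal raises its own breakdown. In the developing jaws both a shortage and an excess of retinoic acid are known to cause malformation.

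The 9 genes were chosen by symbol, out of 18193 genes represented on the array, and each gene was read from its probe set with the highest mean over 24 arrays. For 8 of the 9 a probe set carried the symbol, and all 8 passed the filter on low values, which kept 14879 genes. Cyp26c1 was not analysed here. Aldh1a3 has 3 probe sets and each other gene has 1. On GRCm38.p6, the build of the RefSeq gene table used, Cyp26a1 spans chr19:37697738-37701536 and Cyp26c1 ends 4418 bases before it. Aldh1a1 lies on the same chromosome at chr19:20492583-20643463. Aldh1a2 lies at chr9:71215789-71296243, Aldh1a3 at chr7:66390892-66427477 and Cyp26b1 at chr6:84571414-84593908. Rarb lies at chr14:16430839-17082331, Crabp1 at chr9:54764748-54773110 and Crabp2 at chr3:87948693-87953372.

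The arrays measured total RNA of the mandible (lower jaw) and the maxilla (upper jaw) of C57B6 mouse embryos at embryonic day 12.5, each jaw cut into a distal and a proximal end. Knockout embryos came from crosses of Wnt1-Cre; Tgfbr2 fl/+ mice with Tgfbr2 fl/fl mice, which removes Tgfbr2, a receptor of TGF-beta, from the neural crest cells where Wnt1-Cre acts, so that muscle, epithelium and vessels of the jaws keep it. Controls were littermates, whose alleles the sources used here do not give. Mutants were recognised, per the series text, by defects of the palate and skull. Genotype, jaw and end made 8 groups of 3 arrays, and the labels do not say whether an array holds 1 embryo or a pool.

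Response elements were looked for first, because they are the part of a promoter that ties a gene to retinoic acid receptors. Windows from 250 bases before to 50 after annotated start sites (RefSeq, GRCm38.p6) were searched on both strands for a pair of half-sites in the same direction with 5, 2 or 1 bases between them, the half-sites being AGGTCA or its variants, which were AGTTCA and, with another first base, GGGTCA and also GGTTCA. A pair with a spacer of 5 was found in 32 of 32851 windows (0.0974%), among them those of Rarb and Cyp26a1. The stretches below are printed 5′ to 3′ on the strand of the gene, with the half-sites in capitals. For Rarb the stretch is chr14:16575477-16575589, on the minus strand, and the pair covers bases -53 to -37 before the start site. For Cyp26a1 it is chr19:37697770-37697799, on the plus strand, and the pair covers bases -32 to -16 and reads on the opposite strand. Both stretches lie within the RefSeq span of their gene, that of Rarb far from either end of the span. The last lines give both pairs in reading direction, to set them side by side.
Rarb promoter: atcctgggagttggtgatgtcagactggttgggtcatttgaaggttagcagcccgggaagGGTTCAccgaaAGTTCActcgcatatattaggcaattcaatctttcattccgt
Cyp26a1 promoter: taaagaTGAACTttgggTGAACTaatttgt
Rarb pair: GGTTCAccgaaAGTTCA
Cyp26a1 pair: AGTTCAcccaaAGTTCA

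Spacers of 2 and 1 bases were found in 0.268% and 0.222% of windows. No pair with any of these spacers was found in the windows of Aldh1a1, Aldh1a2, Cyp26b1, Cyp26c1 and Crabp1, and Aldh1a3 and Crabp2 had no window in the table. A match of letters is a description of the sequence and was not set against binding data.

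Some arrays stood apart. On the log2 scale the signal of Tgfbr2 itself was 11.78 ± 0.29 (SD, n = 12) for control and 12.11 ± 0.40 (SD, n = 12) for knockout arrays, so the knockout label did not go with a lower value. The sources used here do not say whether its probe set lies in the deleted part, so it does not check the labels. All 5 facial mesenchyme markers (Prrx1, Twist1, Msx1, Pdgfra and Col1a1) were above the array's 30th percentile in every array, and the mean of the mandible markers Hand2, Dlx5, Dlx6 and Dlx3 was 10.78 to 11.57 in mandible arrays against 7.96 to 9.23 in maxilla arrays. The markers listed for the maxilla (Pou3f3, Dlx1 and Dlx2) went against the label, with a mean of 9.66 to 11.69 in mandible arrays and 7.58 to 10.79 in maxilla arrays. Both ends numbered 1 of the control maxilla and of the knockout mandible, 4 arrays in all, correlated better with the other end of their jaw than with their own, as did 3 further arrays. The 4 control arrays numbered 2 carried Y-linked signal and no other array did. In knockout maxilla proximal 1 and 2 the mean of 9 neuron markers was 12.56 and 12.41, against 10.56 or lower in the other 22 arrays. Values without these arrays stand beside many of the results below whose sign or call they decided, but not beside every one.

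Most of the retinoic acid genes gave signal in all parts of the jaws. With the array's 30th percentile taken as background, 6 genes exceeded the 30th percentile in 24 of 24 arrays, Aldh1a3 did in 23 and Aldh1a1 in 5. Differences were tested with limma on all 24 arrays, with p-values adjusted by the Benjamini-Hochberg method over all genes tested, and a gene was called at an adjusted p under 0.05. Of the 8 genes, Cyp26a1 was called between the ends of the control mandible and between the proximal ends of the control jaws, Aldh1a3 between the distal ends of the control jaws, and Crabp2 between knockout and control in the proximal maxilla. In that order, each comparison called 1 of 8, against 3.45%, 14.5%, 14% and 5.77% of all genes. Values below are log2 signals, in the order of the array numbers 1, 2 and 3 where 3 are given.

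**Figure D1:**
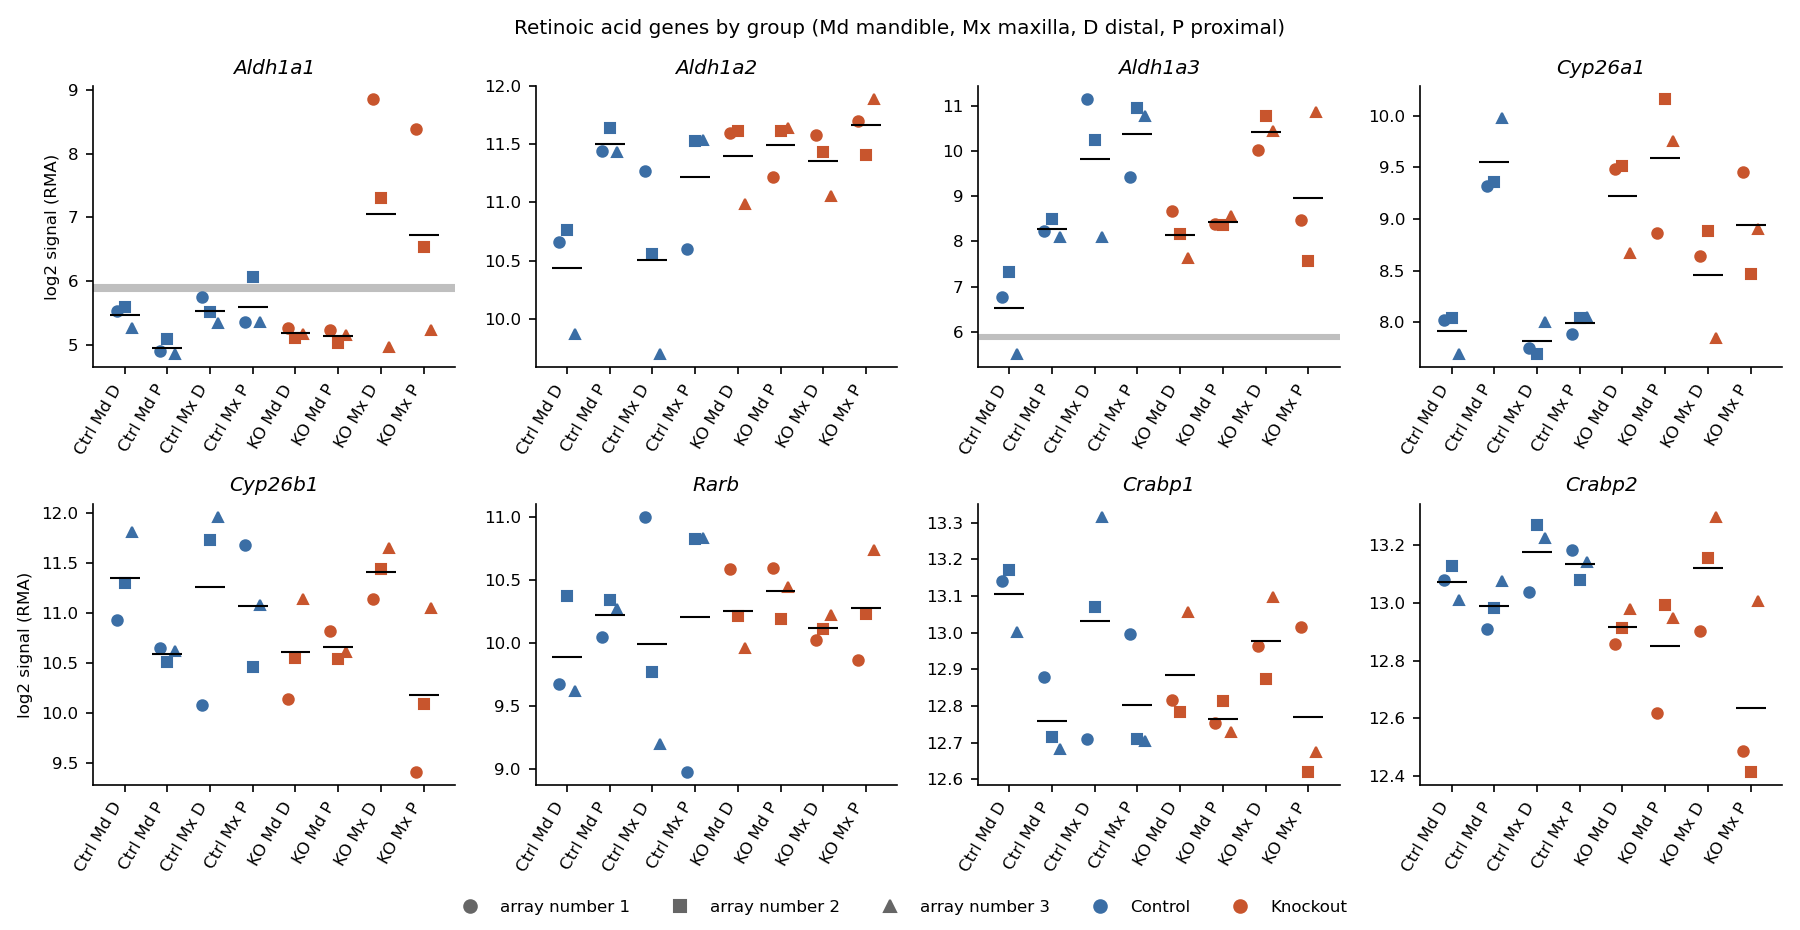
Log2 signal (RMA, vertical axis) of 8 retinoic acid genes in the 8 groups of 3 arrays: each symbol is 1 array, its shape gives the array number, and black lines are group means. The grey band, where it falls in the plotted range, spans the arrays' 30th percentiles (5.85 to 5.93). Cyp26a1 reaches 9.32 to 9.98 in the control mandible proximal end and stays at 8.05 or lower in the other control groups. Aldh1a3 is higher in the maxilla than in the mandible at each end of the control jaws.

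Among the synthesis enzymes, Aldh1a2, the main maker of retinoic acid in the early embryo, leaned lower in distal than in proximal ends of the control jaws without passing the test. It measured 10.66, 10.76 and 9.87 in the control mandible distal end and 11.44, 11.64 and 11.44 in the proximal end. These arrays did not overlap. The difference was -1.07 (SE 0.33, limma, adjusted p = 0.079), short of the threshold. It passed without the 4 arrays with doubted ends (adjusted p = 0.0203), none of which is in these groups.

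Aldh1a2 in the control maxilla measured 11.27, 10.55 and 9.69 distally and 10.60, 11.53 and 11.53 proximally. Array 1 ran against the other two, its distal value lying among the proximal ones. The difference was -0.71 (SE 0.33, limma, adjusted p = 1), and it was -1.41 without the doubted arrays (adjusted p = 0.0534).

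Knockout arrays held Aldh1a2 at 11.59, 11.61 and 10.98 in the mandible distal end and at 11.58, 11.43 and 11.05 in the maxilla distal end. All of the former lay above the control mandible distal arrays. The distal differences were 0.97 (SE 0.33, limma, adjusted p = 0.227) in the mandible and 0.85 (SE 0.33, limma, adjusted p = 1) in the maxilla. Proximal values were 11.22, 11.61 and 11.64 in the knockout mandible and 11.70, 11.40 and 11.89 in the knockout maxilla, and both overlapped their controls. Over the 4 regions the mean difference was 0.56 (SE 0.17, limma, adjusted p = 0.0818), short of the threshold. It passed in 2 of 13 alternatives, among them the array number as a replicate block (limma, adjusted p = 0.0479), and in 3 of 24 fits without 1 array. The spread of Aldh1a2 over arrays was 0.27 (SD, n = 12) in knockouts against 0.66 (SD, n = 12) in controls.

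Aldh1a3, which makes retinoic acid in the nasal and eye region of the embryo, separated the jaws. It measured 6.76, 7.32 and 5.50 in the control mandible distal end and 11.16, 10.24 and 8.10 in the control maxilla distal end. Every maxilla array was above every mandible array, but the maxilla arrays spread widely. Signal in the mandible was lower by a log2 difference of -3.31 (SE 0.74), 9.89-fold, and the call was made with limma at an adjusted p of 0.0071. It was the only 1 of the 8 genes called between the distal ends, where 14% of all genes were called, and also the only 1 without overlap, against 36.1% of all genes. The call held on leaving out each single array, with the difference between -4.17 (without control maxilla distal 3) and -2.64 (without control maxilla distal 1), and the mean of its 3 probe sets gave -2.24. It was lost without the 4 control arrays numbered 2 (-3.50, adjusted p = 0.0618) and in a fit of these groups alone (adjusted p = 0.0588).

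At the proximal ends Aldh1a3 measured 8.23, 8.49 and 8.10 in the control mandible and 9.42, 10.96 and 10.77 in the control maxilla. The groups did not overlap, and the difference of -2.11 (SE 0.74, limma, adjusted p = 0.0619) missed the threshold. It passed in 4 of 15 alternatives, among them a random replicate block of genotype and number (limma, adjusted p = 0.0408), and in 4 of 24 fits without 1 array. Without the 4 control arrays numbered 2 it was -1.94 (limma, adjusted p = 0.27). Within the control mandible the distal end was below the proximal end in every array, by -1.75 (SE 0.74, limma, adjusted p = 0.205). Both other probe sets of Aldh1a3 followed the same order of jaws on average. In 1 of them the proximal groups overlapped, with control maxilla 1 at 6.70 and control mandible 2 at 6.73. Nasal and olfactory markers moved with it: 4 of 4 of the listed genes with a probe set exceeded the 30th percentile in the control maxilla arrays, with a mean of 9.95 to 10.31, and 3 or 4 of 4 did in the control mandible arrays, with a mean of 8.42 to 8.65. Eye and forebrain markers (6 genes with a probe set) moved with it too, with a mean of 8.35 to 8.67 and 4 or 5 of 6 above it in the control maxilla, against 5.29 to 6.04 and 1 to 3 of 6 in the control mandible. The part of these tissues in the result was not tested. In bulk tissue, fewer cells of a type and less RNA per cell cannot be told apart.

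Knockout arrays held Aldh1a3 at 8.66, 8.17 and 7.62 in the mandible distal end, all above the control arrays there, a difference of 1.63 (SE 0.74, limma, adjusted p = 0.369). The knockout mandible proximal arrays lay at 8.38, 8.36 and 8.56. In the knockout maxilla the distal arrays measured 10.02, 10.78 and 10.44 and the proximal arrays 8.46, 7.56 and 10.86. Proximal arrays 1 and 2, the ones rich in neuron markers, were low, and the third was within the control range. The proximal difference was -1.42 (SE 0.74, limma, adjusted p = 0.231), and it turned to 0.48 (adjusted p = 1) without proximal arrays 1 and 2. Without knockout proximal array 3 it was -2.37 (adjusted p = 0.0175), past the threshold. The knockout difference at distal ends minus that at proximal ends was 1.73 (SE 0.74, limma, unadjusted p = 0.03, adjusted p = 1), and 0.78 without those 2 arrays.

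Aldh1a1, which makes retinoic acid in the dorsal retina and other tissues, was at background in most arrays. All 12 control values lay between 4.85 and 6.06, and the 6 knockout mandible values lay between 5.03 and 5.26. Knockout maxilla arrays measured 8.86, 7.31 and 4.97 distally and 8.39, 6.53 and 5.22 proximally. Numbers 1 and 2 were above background at both ends, and number 3 was at background at both ends. Of the 5 arrays above background 4 were of the knockout maxilla, so Aldh1a1 passed the filter through the groups where it was high, and its differences are given as descriptions. Group means differed by 1.52 distally and by 1.12 proximally, with overlap, and the latter turned to -0.37 without proximal arrays 1 and 2.

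Some genes of the eye were high in the same arrays and others were not, and the mean of the eye and forebrain list overlapped that of the control maxilla. Six6, a transcription factor of the retina and hypothalamus, measured 9.10, 7.56 and 6.65 in the knockout maxilla distal end and 7.68, 10.61 and 5.31 in the proximal end, against 5.70 to 6.96 in the control maxilla. Rax, a transcription factor of the eye field, measured 6.38, 5.88 and 5.72 distally and 6.54, 6.64 and 5.55 proximally, against 5.38 to 5.69. The gene most like Aldh1a1 over 24 arrays was Atoh7 (Pearson r = 0.886), needed for retinal ganglion cells, followed by Gpnmb (r = 0.879), a gene of pigment cells, and Crhbp (r = 0.862). These genes were picked for their likeness in these same arrays, so they are no separate support. Atoh7 measured 8.73, 7.21 and 6.57 distally and 7.93, 6.94 and 6.60 proximally, against 6.55 to 6.89 in the control maxilla. Of the eye and forebrain list, 6 genes had a probe set, and 5 or 6 of 6 exceeded the 30th percentile in knockout maxilla distal arrays, 4 to 6 in proximal ones and 4 or 5 in control maxilla arrays. The list's mean was 8.48 to 9.15, 7.37 to 8.99 and 8.35 to 8.67 in these. Six6 and Rax are the only genes of this list given singly, and they do not stand for the rest. By these means, the other listed genes together were lower in knockout maxilla proximal 2 than in each control maxilla array. The part of eye tissue in the Aldh1a1 signal was not tested.

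**Figure D2:**
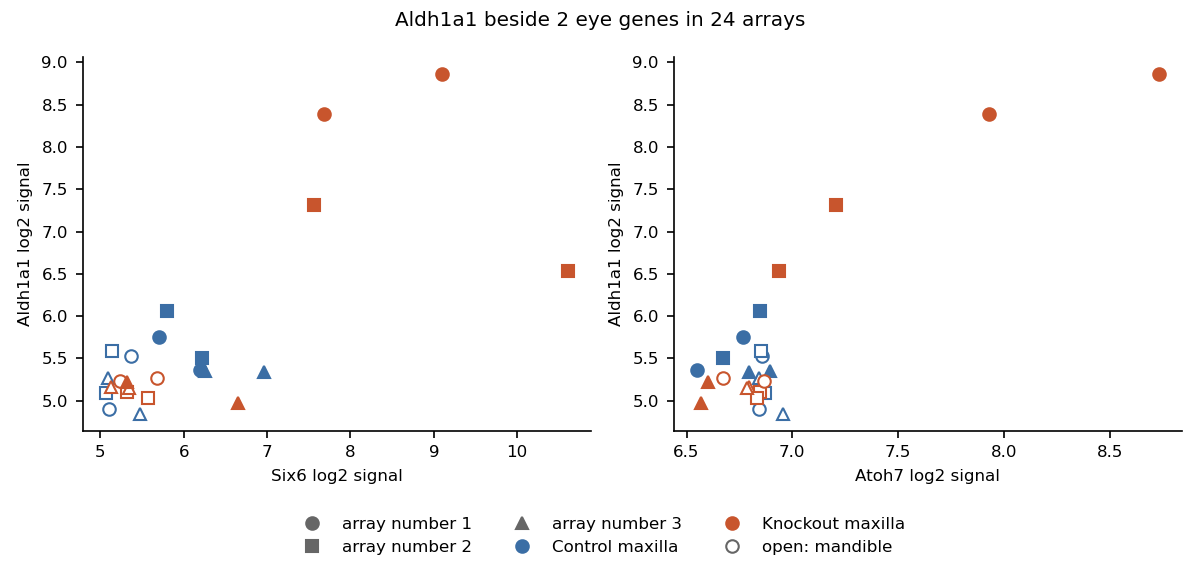
Log2 signal of Aldh1a1 (vertical axis) against Six6 (left) and Atoh7 (right) in 24 arrays, with maxilla arrays filled, mandible arrays open and symbol shape giving the array number. The 4 knockout maxilla arrays numbered 1 and 2, at 6.53 to 8.86 for Aldh1a1, lie above all other arrays, which reach 6.06.

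Among the breakdown enzymes, Cyp26a1 gave the clearest regional difference. It measured 8.02, 8.04 and 7.69 in the control mandible distal end and 9.32, 9.36 and 9.98 in the proximal end. The 2 groups were more than 1 log2 unit apart with no overlap. Distal signal was lower by a log2 difference of -1.64 (SE 0.32), 3.11-fold, called with limma at an adjusted p of 0.0136. Cyp26a1 was the only 1 of the 8 genes called between these ends, where 3.45% of all genes were called. Of the 8 genes, 6 did not overlap between the ends, against 30.3% of all genes: Aldh1a1, at background in both, Aldh1a2, Aldh1a3, Cyp26a1, Cyp26b1 and Crabp1. The Cyp26a1 call was lost without control mandible distal 3 (-1.52, adjusted p = 0.0771), without control mandible proximal 3 (-1.42, adjusted p = 0.0623) and without the 4 control arrays numbered 2 (-1.79, adjusted p = 0.0984).

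In the control maxilla Cyp26a1 measured 7.75, 7.69 and 8.004 distally and 7.89, 8.04 and 8.05 proximally. These values overlapped each other and those of the control mandible distal end. The difference was -0.18 (SE 0.32, limma, adjusted p = 1). The proximal end of the mandible was therefore the one control region with a high signal, above the proximal maxilla by 1.56 (SE 0.32), 2.94-fold, called with limma at an adjusted p of 0.00449. Here 1 of 8 genes was called against 14.5% of all genes, and 4 of 8 did not overlap against 45.6% of all genes. Its adjusted p stayed below the threshold in each of the 24 fits without 1 array (adjusted p 0.00228 to 0.0281) and in all 15 alternatives. The test of the difference itself, the end difference in the mandible minus that in the maxilla, gave -1.46 (SE 0.46, limma, unadjusted p = 0.00519, adjusted p = 0.481), and none of the 8 genes was called in it, against 0% of all genes; 1 of 8 had an unadjusted p under 0.05, against 6.18% of all genes.

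**Figure D3:**
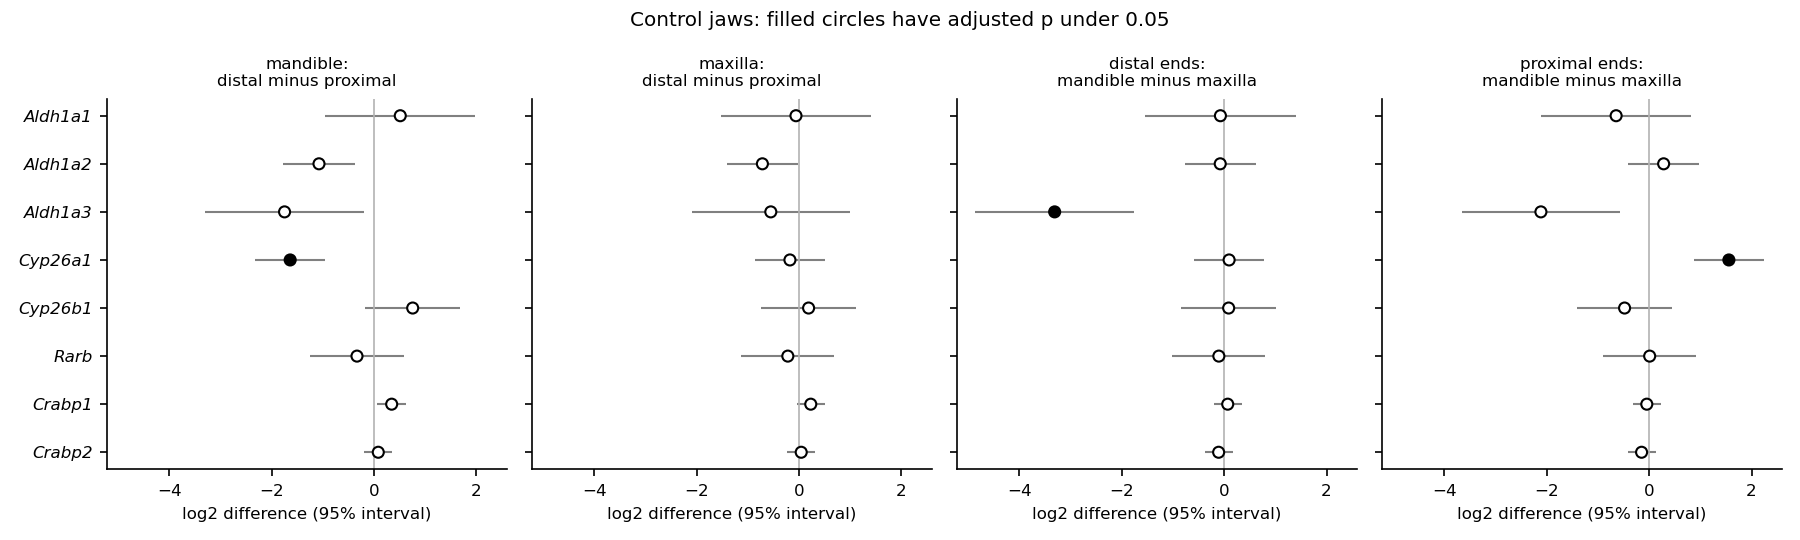
Log2 differences (horizontal axis, with 95% intervals) of 8 retinoic acid genes between regions of the control jaws, with 3 arrays a group and filled circles for an adjusted p under 0.05. Cyp26a1 is filled for the ends of the mandible (-1.64) and for the proximal ends of the jaws (1.56), Aldh1a3 for the distal ends of the jaws (-3.31), and no gene for the ends of the maxilla.

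Knockout arrays held Cyp26a1 at 9.49, 9.51 and 8.67 in the mandible distal end. Each was above the control arrays there (7.69 to 8.04), and 2 of the 3 lay within the range of the control proximal end. The difference was 1.31 (SE 0.32, 95% interval 0.63 to 1.99, limma, adjusted p = 0.122). None of the 8 genes was called in this comparison, where 0.134% of all genes were, and 3 of 8 had an unadjusted p under 0.05 against 12.6% of all genes. The groups did not overlap for 5 of 8, against 14.5% of all genes: Aldh1a1, at background in both, Aldh1a2, Aldh1a3, Cyp26a1 and Crabp2. Without knockout mandible distal 3, the lowest of its group, Cyp26a1 was called at 1.58 (adjusted p = 0.0296). Without the doubted arrays it was 1.17 (adjusted p = 0.385).

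Markers of other tissues moved with this result in the distal mandible. The Hox genes that mark tissue from the second arch backward (5 genes, Hoxa2, Hoxb2, Hoxa3, Hoxb3 and Hoxb4) had a mean of 5.94 to 6.65 in control distal arrays, 6.81 to 7.95 in knockout distal arrays and 7.15 to 8.16 in control proximal arrays, with 3 to 5, 5 and 5 of 5 above the 30th percentile. Skeletal muscle markers (7 genes) had a mean of 6.30 to 10.25, 10.79 to 11.76 and 11.12 to 11.40 in the same groups, with 4 to 7, 7 and 7 of 7 above it. Schwann and glia markers (4 genes with a probe set) had a mean of 7.89 to 8.27, 9.09 to 9.99996 and 9.92 to 10.19, and macrophage markers (5 genes) one of 8.70 to 9.08, 9.08 to 10.06 and 9.26 to 9.44, with all of these genes above it in each array. Neuron markers (9 genes) had a mean of 7.81 to 8.34, 8.17 to 8.52 and 9.62 to 10.42, with 7, 7 and 9 of 9 above it. Control mandible distal 3 had the lowest mean of the Hox and muscle lists in its group and the lowest Cyp26a1, Aldh1a2 and Aldh1a3. The part of these tissues in the result was not tested.

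Elsewhere Cyp26a1 measured 8.86, 10.17 and 9.76 in the knockout mandible proximal end, spread around the control values, with a difference of 0.04 (SE 0.32, limma, adjusted p = 1). That difference turned to -0.05 without the 4 control arrays numbered 2. In the knockout maxilla Cyp26a1 measured 8.64, 8.89 and 7.85 distally and 9.46, 8.46 and 8.90 proximally. All proximal arrays were above their controls, and distal array 3 fell within them. The differences were 0.64 (SE 0.32, limma, adjusted p = 1) distally and 0.95 (SE 0.32, limma, adjusted p = 0.0817) proximally. Over the 4 regions the mean difference was 0.73 (SE 0.16, 95% interval 0.39 to 1.08, limma, adjusted p = 0.0517), 1.66-fold higher in knockouts. It missed the threshold by little and passed it in 6 of 13 alternatives and in 6 of 24 fits without 1 array, with adjusted p-values from 0.000934 to 0.221 over the alternatives. With the array number as a replicate block it passed (adjusted p = 0.0225).

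**Figure D4:**
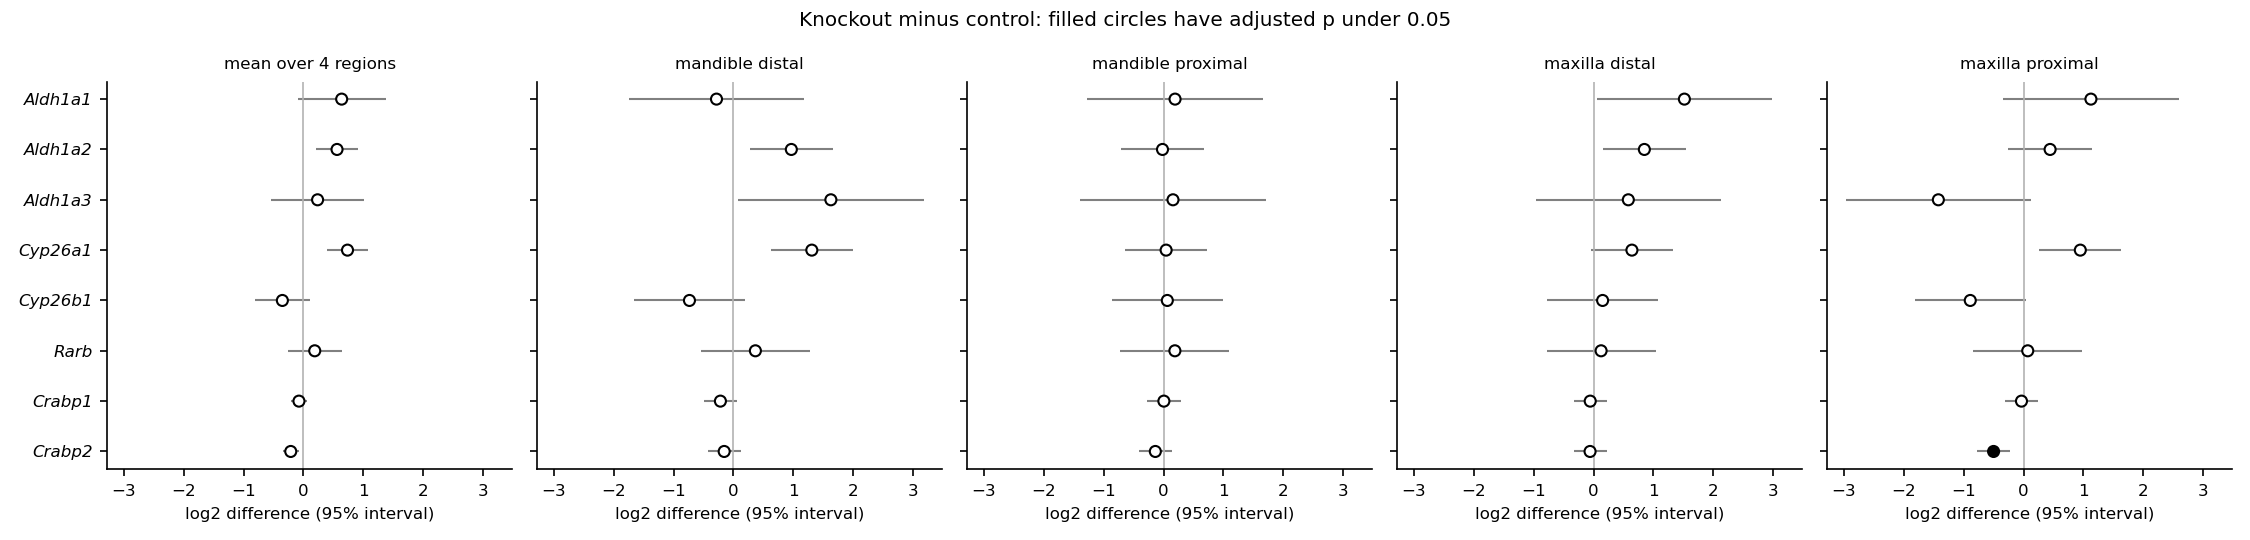
Log2 differences of knockout minus control (horizontal axis, with 95% intervals) of 8 retinoic acid genes, as the mean over 4 regions and in each region, with 3 arrays a group and filled circles for an adjusted p under 0.05. Cyp26a1 lies at 0.73 in the mean and at 1.31 in the distal mandible without passing, and Crabp2 is filled in the proximal maxilla (-0.50).

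Cyp26b1, the enzyme that clears retinoic acid in limb and facial mesenchyme, leaned the other way in the control mandible. It measured 10.94, 11.31 and 11.81 in the control mandible distal end and 10.65, 10.51 and 10.62 in the proximal end. The arrays did not overlap, and the difference of 0.76 (SE 0.44, limma, adjusted p = 0.387) was not called. In the control maxilla it measured 10.08, 11.73 and 11.97 distally and 11.68, 10.46 and 11.08 proximally, array 1 running against the others at both ends. That difference was 0.19 (SE 0.44, limma, adjusted p = 1). It was 1.08 without the doubted arrays, and turned to -0.36 without the control arrays numbered 2 and to -0.17 without control maxilla distal 3.

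Knockout arrays held Cyp26b1 at 10.14, 10.55 and 11.15 in the mandible distal end and at 10.82, 10.54 and 10.61 in the proximal end. In the maxilla they measured 11.14, 11.44 and 11.65 distally and 9.41, 10.09 and 11.05 proximally. Every knockout group overlapped its control. The differences were -0.73 in the distal mandible, 0.06 in the proximal mandible, 0.15 in the distal maxilla and -0.89 in the proximal maxilla, with limma's adjusted p between 0.211 and 1. The distal maxilla value turned to -0.44 without the doubted arrays, and the proximal maxilla value was -0.02 without knockout arrays 1 and 2 and -1.32 without knockout array 3 (limma, adjusted p = 0.0419).

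Rarb, the receptor gene with the response element printed above, did not pass in any comparison. It measured 9.68, 10.38 and 9.62 in the control mandible distal end and 10.05, 10.34 and 10.27 in the proximal end, with a difference of -0.33 (SE 0.43, limma, adjusted p = 0.739). The control maxilla gave 11.004, 9.77 and 9.20 distally and 8.97, 10.83 and 10.83 proximally. Numbers 2 and 3 were lower distally and number 1 was higher distally, by 2.03. The difference was -0.22 (SE 0.43, limma, adjusted p = 1), and without the doubted arrays it was -1.34 (adjusted p = 0.0348), past the threshold. It turned to 0.20 without the control arrays numbered 2 and to 0.18 without control maxilla distal 3, both at an adjusted p of 1, so its direction rested on the arrays kept.

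That contrast between array 1 and arrays 2 and 3 of the control maxilla ran through 7 of the 8 genes, all but Cyp26a1, in that the sign at number 1 was opposite to that at numbers 2 and 3. Distal minus proximal by array number was 0.67, -0.98 and -1.84 for Aldh1a2, 1.73, -0.72 and -2.67 for Aldh1a3, and -1.60, 1.27 and 0.88 for Cyp26b1. It was smaller for Aldh1a1 (0.39, -0.55 and -0.02), which lay near background, Crabp1 (-0.29, 0.36 and 0.61) and Crabp2 (-0.14, 0.19 and 0.08). In the fit with all arrays none of the 8 genes was called between the ends of the maxilla, against 0% of all genes, with 1 of 8 and 0.692% of all genes at an unadjusted p under 0.05. None of the 8 was free of overlap, against 6.46% of all genes. The part of the doubted end labels in this was not tested, and all arrays were kept as labelled.

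**Figure D5:**
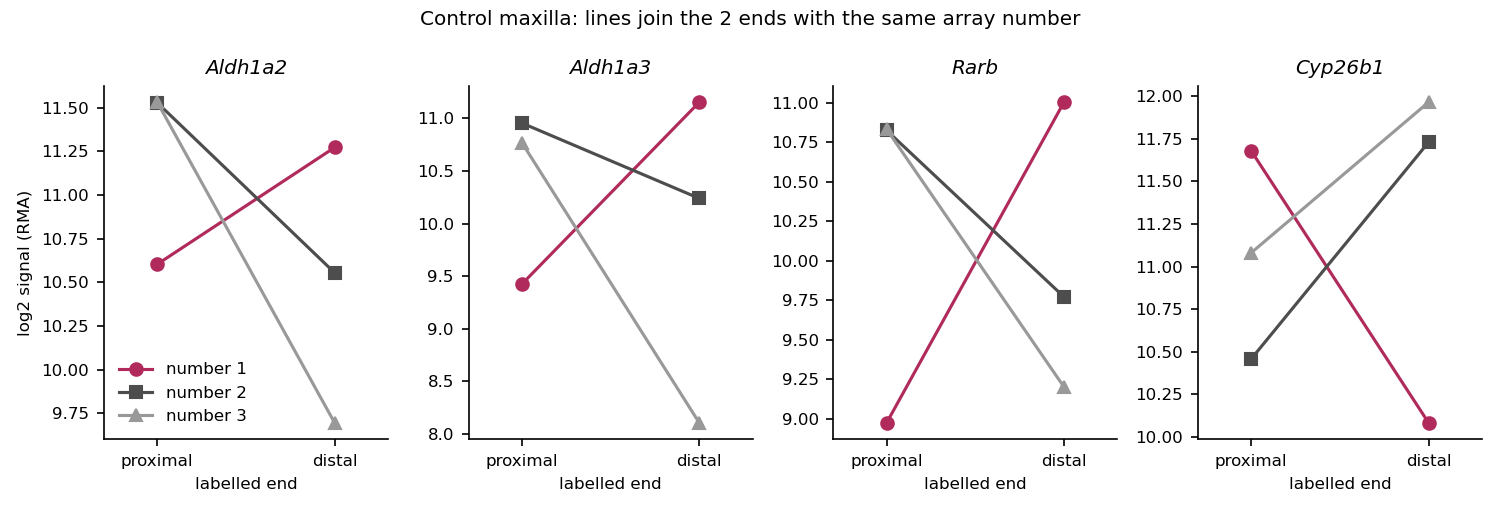
Log2 signal (vertical axis) of 4 retinoic acid genes in the control maxilla, with lines joining the proximal and distal arrays of the same number. Arrays numbered 2 and 3 fall toward the distal end for Aldh1a2, Aldh1a3 and Rarb and rise for Cyp26b1, and number 1 runs the other way in all 4 genes.

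Rarb in knockouts measured 10.59, 10.22 and 9.96 in the mandible distal end, 10.60, 10.20 and 10.44 in the mandible proximal end, 10.02, 10.11 and 10.22 in the maxilla distal end and 9.87, 10.23 and 10.74 in the maxilla proximal end. All of these overlapped the controls. Over the 4 regions the difference was 0.19 (SE 0.22, 95% interval -0.27 to 0.64, limma, adjusted p = 0.617). Without the doubted arrays the proximal maxilla difference turned from 0.07 to -0.55 (adjusted p = 0.231).

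The binding proteins stood in a narrow range. Crabp1, a marker of cranial neural crest mesenchyme, lay between 12.62 and 13.32 in the 24 arrays. It measured 13.14, 13.17 and 13.00 in the control mandible distal end and 12.88, 12.71 and 12.68 in the proximal end, without overlap, and the difference of 0.35 (SE 0.13, limma, adjusted p = 0.162) was not called. Its knockout differences lay between -0.22 and 0.01 in the 4 regions, none called.

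Crabp2, which delivers retinoic acid to its receptors in the nucleus, fell in the proximal maxilla of knockouts. It measured 13.18, 13.08 and 13.14 in controls and 12.49, 12.41 and 13.00 in knockouts. All knockout arrays were below all control arrays, 2 of them by far and the third by little. The difference was -0.50 (SE 0.13), 1.41-fold lower, called with limma at an adjusted p of 0.0338. It was 1 of 8 genes called, against 5.77% of all genes, and 2 of 8 did not overlap (with Cyp26a1), against 25.3% of all genes.

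This Crabp2 call rested on single arrays. Knockout arrays 1 and 2 of this group are those with the high neuron means of 12.56 and 12.41, and without both the difference was -0.13 (adjusted p = 1). All 9 neuron markers exceeded the 30th percentile in these arrays and 8 of 9 in the control maxilla proximal arrays, whose mean was 9.17 to 9.62. The mean of 9 epithelium markers was 8.39 to 10.27 in the knockout group and 10.23 to 10.81 in controls, with overlap. Muscle markers had a mean of 9.32 to 11.30 in knockouts against 7.48 to 7.96 in controls of this region, with 7 and 6 or 7 of 7 above the 30th percentile. Schwann and glia markers had a mean of 10.05 to 11.32 against 8.85 to 9.79, macrophage markers one of 9.65 to 9.84 against 8.36 to 9.37, and the Hox genes one of 6.24 to 7.30 against 5.92 to 6.09, with 4 of 4, 5 of 5 and 4 or 5 of 5 above it in knockouts. The part of these tissues was not tested. The call was also lost without any one of the 3 control arrays of the group (adjusted p = 0.0726 to 0.12), without knockout array 1 (adjusted p = 0.2) or 2 (adjusted p = 0.181), and without the doubted arrays (-0.48, adjusted p = 0.105) or the 4 control arrays numbered 2 (adjusted p = 0.131). In the other regions the Crabp2 differences were -0.16, -0.14 and -0.06, and the mean over 4 regions was -0.21 (SE 0.07, limma, adjusted p = 0.0872). That mean passed in 2 of 13 alternatives, among them the array number as a replicate block (limma, adjusted p = 0.0351), and in 1 of 24 fits without 1 array. It shrank to -0.12 without knockout maxilla proximal 1 and 2.

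In the genotype comparisons that follow few of all genes were called, so a count of none among 8 says little about these genes. None of the 8 was called in the mean over 4 regions (0.47% of all genes), in the proximal mandible (0.0538%) or in the distal maxilla (0.0202%). An unadjusted p under 0.05 was reached by 3, 0 and 2 of 8, against 23.2%, 2.86% and 2.65% of all genes. The 2 in the distal maxilla were Aldh1a2 and Aldh1a1. Aldh1a1 passed the filter through the knockout maxilla, so its place in this count is a description and no support. No gene of the 8 was free of overlap in the proximal mandible (9.45% of all genes) or the distal maxilla (6.9%). None was called for a difference of the knockout effect between jaws (0.0336% of all genes) or between ends (0.00672%), where 0 and 1 of 8 had an unadjusted p under 0.05, against 6.62% and 4.29% of all genes. The median knockout difference of the 8, Aldh1a1 included, over 4 regions was 0.21, beside 0.01 for all genes tested.

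The genes varied together in part over the 24 arrays, which share regions and numbers. Aldh1a2 went with Rarb (Pearson r = 0.681) and Cyp26a1 (r = 0.651) and ran against Crabp1 (r = -0.741) and Cyp26b1 (r = -0.703). Cyp26b1 went with Crabp2 (r = 0.720), and Aldh1a3 was nearly unrelated to Cyp26b1 (r = -0.0033). The genes most like each were Cyp1b1, Sfrp2 and Barx1 for Aldh1a2 (r = 0.914 for the first), Prr15, Ccn3 and Nek7 for Aldh1a3 (0.929), Dlx1as, Cryab and Dlx1 for Cyp26a1 (0.944) and Nkd1, Trps1 and Glis3 for Cyp26b1 (0.954). For Rarb they were Gbp7, Fgd5 and Bst2 (0.903), for Crabp1 Sertad4, Ripor3 and Cacna1d (0.862), and for Crabp2 Phgdh, Rab23 and Cdk5rap2 (0.932). These are descriptions and carry no test.

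Other genes of retinoid handling, 16 tested of a list of 21, were called in small numbers. Between the ends of the control mandible 2 of 16 were called, against 3.45% of all genes, both lower distally. Stra6, the cell-surface receptor that takes up vitamin A, was at 6.35 to 7.20 distally and 8.48 to 8.87 proximally, a difference of -1.79 (SE 0.30, limma, adjusted p = 0.00601). Rxrg, a retinoid X receptor, was at 6.95 to 8.02 and 8.76 to 9.09, a difference of -1.57 (SE 0.37, limma, adjusted p = 0.0263). The median of the 16 was -0.11, beside -0.02 for all genes.

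Between the distal ends of the control jaws 3 of 16 were called, near the share of all genes (14%). Stra6 was lower in the mandible (-1.93, limma, adjusted p = 0.000717), as was Nrip1, a corepressor of nuclear receptors (-0.48, limma, adjusted p = 0.00295), and Rdh11, a retinol dehydrogenase, was higher (0.50, limma, adjusted p = 0.00306). Between the proximal ends 4 of 16 were called (14.5% of all genes). Rdh10, which makes the retinaldehyde that Aldh1a enzymes use, was higher in the mandible (0.56, limma, adjusted p = 0.008), as were Rdh11 (0.49) and Rxrg (1.70), and Nrip1 was lower (-0.46). The medians were -0.05 and 0.04, beside 0.01 and 0.02 for all genes. In the control maxilla no gene of this list was called between ends, the smallest p-values being those of Rdh10 (0.26) and Stra6 (-0.49), with limma's adjusted p of 1.

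Knockout comparisons called 1 of 16 genes of this list, Nrip1, lower in the proximal maxilla (-0.48, SE 0.09, limma, adjusted p = 0.0127), where the share of all genes called was about the same (5.77%). In the distal mandible none of 16 passed, and Stra6 (1.43, adjusted p = 0.0724) and Rxrg (1.42, adjusted p = 0.134) had the smallest p by limma. Rxrg was also next in the proximal maxilla (1.19, adjusted p = 0.0608) and first in the mean over regions (0.72, adjusted p = 0.0566), followed there by Rdh11 (-0.16, adjusted p = 0.0872). In the proximal mandible and the distal maxilla none passed, with Rdh11 (-0.21 and -0.15), Rxrb (-0.11) and Nrip1 (-0.14) at the smallest p. The tests of a difference between effects called none, with Nrip1 (0.36) and Rdh10 (0.26) first between jaws, Stra6 (1.09) and Rara (0.31) first between ends, and Stra6 (-1.30) and Rdh10 (-0.54) first for the end difference of the control jaws.

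Genes known to respond to retinoic acid, 11 tested of a list of 16, also differed between control regions. Between the ends of the control mandible 4 of 11 were called (3.45% of all genes), all lower distally, and 9 of 11 did not overlap (30.3% of all genes). Nr2f1, an orphan nuclear receptor, was at 8.47 to 10.21 distally and 12.56 to 13.08 proximally (-3.73, SE 0.48, limma, adjusted p = 0.00209). Its relative Nr2f2 differed by -1.90 (limma, adjusted p = 0.00209), Meis1, a homeobox partner of Hox proteins, by -1.82 (limma, adjusted p = 0.0338), and Hoxa2, which specifies the second arch, by -4.81 (limma, adjusted p = 0.0228). Hoxa2 at 4.27 to 5.98 distally was above background in only 1 of 3 arrays there, so its difference has no exact size. The median of the 11 was -1.49, beside -0.02 for all genes.

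Between the proximal ends of the control jaws Hoxa2 (5.37), Hoxb2 (2.21), Tbx1 (0.75), a T-box gene of the pharyngeal arches, and Zbtb16 (0.83) were called, all higher in the mandible, with limma's adjusted p between 0.00395 and 0.0115. Hoxa2 was below background in all control maxilla arrays (4.11 to 4.56 proximally), so its difference has no exact size. Between the distal ends Nr2f1 (-3.12), Nr2f2 (-1.17) and Foxc1 (-2.29), a forkhead factor of head mesenchyme, were lower in the mandible and Tbx1 (1.15) was higher, with limma's adjusted p between 0.000652 and 0.00553. At the proximal and the distal ends 4 and 4 of 11 were called, against 14.5% and 14% of all genes. The medians of the 11 were 0.75 and 0.22, beside 0.02 and 0.01 for all genes. In the control maxilla none passed between ends, with Tbx1 (-0.31) and Meis2 (-0.36) first, and the end difference between jaws was first for Nr2f1 (-3.87) and Nr2f2 (-1.74), each at an adjusted p of 0.264 by limma.

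In the distal mandible of knockouts Nr2f1 and Nr2f2 rose, 2 of 11 called, against 0.134% of all genes. Nr2f1 was at 10.59 to 12.66 in knockouts against 8.47 to 10.21 in controls (2.79, SE 0.48, limma, adjusted p = 0.0169). Nr2f2 was at 12.33 to 12.96 against 10.73 to 11.64 (1.52, SE 0.25, limma, adjusted p = 0.014). The arrays overlapped in neither gene, and 8 of 11 list genes did not overlap, against 14.5% of all genes. The median of the 11 was 0.51, beside 0.01 for all genes. The Hox and muscle means given for Cyp26a1 moved with these genes as well, and Hoxa2 and Hoxb2 stand in both the marker list and this one.

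No other knockout comparison called a gene of this list. Those with the smallest p were Tbx1 (0.39, limma, adjusted p = 0.0521) and Nr2f2 (0.43, limma, adjusted p = 0.0793) over the 4 regions, Meis1 (-0.52) and Meis2 (-0.26) in the proximal mandible, Tbx1 (0.50) and Meis2 (0.30) in the distal maxilla, and Tbx1 (0.37) and Zbtb16 (0.34) in the proximal maxilla. Nr2f1 and Nr2f2 were first for the difference of the knockout effect between jaws (0.93 and 0.50) and between ends (1.38 and 0.59), with limma's adjusted p of 0.794 or higher.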

How the data were processed

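The deposited table gives, for 45101 probe sets on 24 single-colour arrays, log2 signal that the authors made with RMA, according to the submitters' processing notes, which name no software version. All values were between 2.97 and 14.70 and array medians between 7.26 and 7.38. The number of arrays limits the precision, and the labels do not say whether replicate arrays came from separate embryos, so p-values measure the spread between these arrays. Names came from the platform annotation, which gave 34945 probe sets 1 gene symbol; the rest were left out. A gene was tested if it exceeded its array's 30th percentile (5.85 to 5.93) in at least 3 arrays. No further normalisation was applied.

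Limma 3.58.1 in R 4.3.3 estimated 8 group means from all arrays, leaving 16 residual degrees of freedom, and tested 12 contrasts, two-sided, adjusted by the Benjamini-Hochberg method over 14879 genes. The procedure was tested on simulated data. Members and lists were chosen with earlier results of these data known. All members are named; from the other lists the called genes are named and, where fewer than 2 were called, the 2 with the smallest p. Likeness was Pearson's r over 24 arrays, without a test.

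Whether array numbers pair arrays was checked on the deviations of arrays from their group's mean. Their median correlation was 0.152 over 36 pairs of the same genotype and number, with 23 over 0.1 and a lowest value of -0.645. The array number as a replicate block also joins arrays across genotypes. Over 48 pairs of the same number and other genotype the median was 0.0416, with 20 over 0.1 and a lowest value of -0.342. These values do not settle a pairing, and none was used in the main fit. Alternatives were other normalisations, filters, probe set rules, priors, array weights, replicate blocks, fewer groups and left-out arrays.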

Additional observations from a re-analysis of the deposited data

How the results depend on the processing

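Each comparison was refitted under up to 15 alternatives and without each of the 24 arrays in turn. The 20 differences of single members with an unadjusted p under 0.05 kept their direction in all 286 alternative fits, of which 24 gained the threshold and 7 lost it, and in all 480 fits without 1 array, of which 17 gained it and 7 lost it. These 20 were picked by their p-value and include Aldh1a1 in the distal maxilla, which passed the filter through that jaw. Leaving out an array outside the groups compared cannot change their difference, so many of these fits could not turn a direction. Differences outside the 20 did turn, such as those of Rarb and Cyp26b1 between the ends of the control maxilla. Counts of the 8 members called moved more, and counts of all genes called moved too. The latter stand in brackets, out of 14879 unless stated. For knockout against control over 4 regions 0 were called (70 of all genes). It was 1 with cyclic loess (165), the 50th percentile filter (258 of 12252), the mean of all probe sets (76 of 14383) or the trend and robust prior (192). It was 4 with array weights (2906), and 0 to 3 without 1 array (2132 where it was 3). For the distal mandible (0, 20 of all genes) it was 1 with array weights (642) and 0 to 1 without 1 array (258 where it was 1). For the proximal maxilla it was 1 (859 of all genes). It was 2 with array weights (3245) and 0 with only the groups compared (0), without the doubted arrays (15) or without the arrays with Y-linked signal (17). It was 0 to 3 without 1 array (3366 where it was 3). For the ends of the control mandible it was 1 (513 of all genes). It was 4 with array weights (2504) or only the groups compared (1439), 2 without the doubted arrays (985) and 0 without the Y-linked arrays (27). Without 1 array it was 0 to 2, with 61 or 120 of all genes at 0 and 451 or 572 at 2. For the ends of the control maxilla (0, 0 of all genes) it was 1 with array weights (34) or without the doubted arrays (104). For the end difference between control jaws (0, 0 of all genes) it was 1 with array weights (394) or only the groups compared (242). Between the distal ends of the control jaws (1, 2086 of all genes) it was 0 with only the groups compared (1399) or without the Y-linked arrays (514). Between the proximal ends (1, 2151 of all genes) it was 3 with array weights (6001) and 2 with only the groups compared (2554). Without 1 array it was 1 to 2 (2028 to 2494 where it was 2). The cause was not tested.

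With the array number as a replicate block, 3 members (Cyp26a1, Aldh1a2 and Crabp2) were called over the 4 regions in place of 0. Calls among all genes rose there from 70 to 1102. With a random replicate block of genotype and number 2 (Cyp26a1 and Aldh1a3) were called between the proximal ends of the control jaws in place of 1. There 2892 of all genes were called in place of 2151. The blocks moved no other of these counts. A fixed block of genotype and number could not be fitted for comparisons of genotype, and fits of only the groups compared were not made for the 3 contrasts that use all 8. Array signals give no counts, so how far low genes such as Aldh1a1 lie from zero is unknown.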
